A study of Rattus norvegicus with 3 samples.

Results

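Neurexins, neuroligins and leucine-rich repeat transmembrane neuronal proteins (LRRTMs) hold the sides of a synapse together, and 9 of their genes were followed here in the motor cortex of untreated rats. They were Nrxn2 and Nrxn3 for the neurexins, Nlgn1, Nlgn2 and Nlgn3 for the neuroligins, and Lrrtm1, Lrrtm2, Lrrtm3 and Lrrtm4. The genes were chosen by symbol from the 30957 genes in the deposited tables, and all 9 were found. The study took motor cortex from 3 male rats of the outbred Sprague-Dawley stock and sequenced 1 mRNA library per animal. The labels number the animals 32, 39 and 68, place them in 1 group called normal with no treatment, and give a time of 8 weeks without saying whether it is an age. No genetic change, agent or comparison group is named, so the data show which members the tissue expresses, in what proportions, and how far these animals differ.

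Neurexins sit on the presynaptic axon terminal, and each gene gives long alpha and short beta proteins from separate promoters, which a value per gene does not separate. Neuroligins and LRRTMs sit on the postsynaptic side, where their extracellular domains bind neurexins across the cleft and their tails bind scaffold proteins. In rodents neuroligin 1 is found mainly at excitatory synapses and neuroligin 2 at inhibitory synapses. Neuroligin 3 is found at both and is also made by glia. LRRTMs are best known at excitatory synapses.

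Values are FPKM, fragment counts scaled by gene length and by library size, so levels of different genes are compared per length. Depth was inferred at 15460924 to 17670986 fragments per library, and 1 FPKM then rested on 15.5 to 17.7 fragments per kilobase of gene model. The lowest value of any member, that of Lrrtm3 in animal 68, rested on 62.5 fragments per kilobase, which gives a counting error of 12.6% for each kilobase. With 3 animals in 1 group an exact sign-flip test cannot go below p = 0.25, so no test was run, and differences are set against the spread between animals. The libraries differed in cell type markers before any member was considered. Animal 68 lay at 1 end of each marker sum, and animal 39 lay between the others in all sums but the striatal one. The summed level of 6 choroid plexus markers was 11.5, 631 and 7491 FPKM in animals 32, 39 and 68, and that of 6 oligodendrocyte markers was 3124, 4809 and 8390 in the same order. The sum of 6 astrocyte markers was 272, 435 and 875, that of 7 striatal neuron markers 124, 98.4 and 236, that of 6 microglial markers 36.8, 60.2 and 88.2, and that of 5 oligodendrocyte precursor markers 81.6, 121 and 190. Pan-neuronal markers ran the other way, with sums of 2323, 1986 and 1568 FPKM. Sums for glutamatergic neurons were 2347, 2320 and 1747, sums for GABAergic neurons 486, 447 and 315, and sums for endothelial cells 70.8, 68.9 and 57.9. Of the 60 markers 58 were found and 0 of these were at 0 in every library, and the labelled tissue carried its neuronal markers in every animal.

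The 9 genes kept the same order of level in all 3 animals. Nlgn2 was highest, followed by Nrxn3, Nrxn2, Nlgn3, Nlgn1, Lrrtm1, Lrrtm2, Lrrtm4 and Lrrtm3. All 9 exceeded 1 FPKM in every library. Of the 8 pairs of neighbours in this order, 6 had ranges over the animals that did not overlap. Nrxn3 and Nrxn2 overlapped, as did Lrrtm4 and Lrrtm3, although the first-named gene was higher within each animal. The margin was narrow for Nrxn2 over Nlgn3, where the lowest Nrxn2 value was 27.34 FPKM and the highest Nlgn3 value 27.31, and for Nlgn1 over Lrrtm1, at 20.95 against 20.49. Scalings that multiply a library by 1 factor leave its order as it is, by construction, but a gene model that misses exons or an error in mappability would shift a gene alike in all animals.

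**Figure D1:**
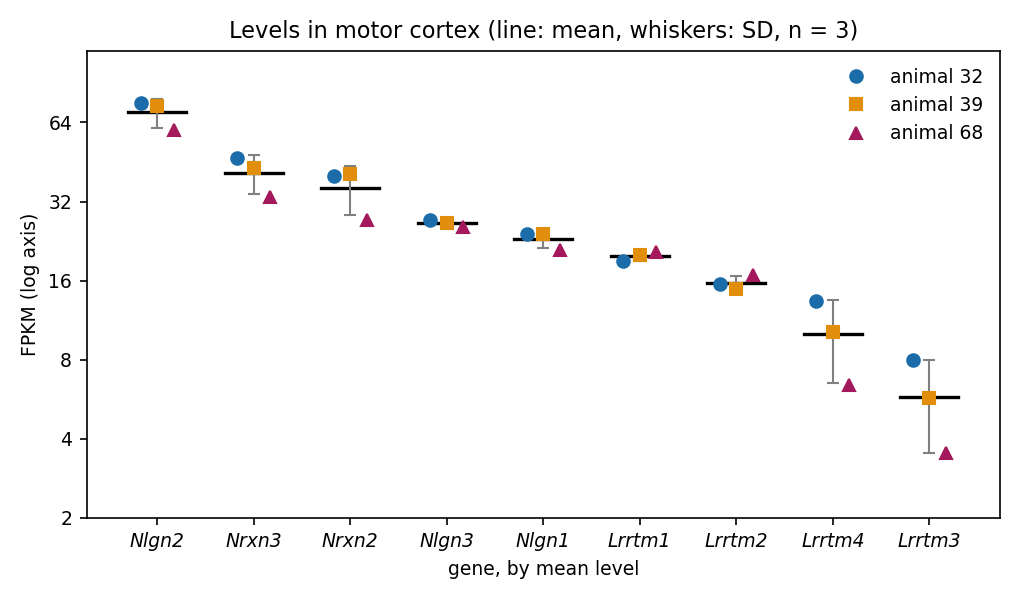
FPKM on a log axis for each of the 9 genes in animals 32, 39 and 68, with the mean as a line and the SD as whiskers (n = 3). Nlgn2 is highest at 69.9 FPKM and Lrrtm3 lowest at 5.75, and the points of Lrrtm4 and Lrrtm3 are the most spread.

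Both presynaptic neurexin genes were expressed at similar levels. Nrxn3 (ENSRNOG00000047574; Rnor_6.0, chromosome 6, 113898420 to 114067055, plus strand) measured 47.0, 43.1 and 33.3 FPKM in animals 32, 39 and 68, a mean of 41.1 ± 7.07 (SD, n = 3). Nrxn2 (ENSRNOG00000021103; chromosome 1, 221801524 to 221908045, plus strand) measured 39.9, 40.9 and 27.3 FPKM in the same order, a mean of 36.0 ± 7.56. For both genes animals 32 and 39 lay close together and animal 68 was low. Without animal 68 the means were 45.0 and 40.4 FPKM. Nrxn3 exceeded Nrxn2 1.15-fold, a log2 ratio of 0.20 ± 0.11 (SD, n = 3) taken within each library on FPKM plus 0.1. The Nrxn3 locus used here spans 10.3% of the span of this gene in RefSeq (build GRCr8), against 91.9% for Nrxn2. The level of Nrxn3 relative to Nrxn2 is therefore uncertain. Nrxn3 was listed under a further gene identifier, ENSRNOG00000045756, a locus of 708 bases on the same chromosome and strand (112203679 to 112204386) that lies upstream of the one described. It measured 9.13, 15.3 and 12.8 FPKM and was lowest in animal 32, unlike the main entry. By the rule for repeated symbols only the entry with the higher mean was counted as the member.

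Among neuroligins, Nlgn2, whose protein organises inhibitory synapses, was the main transcript. Nlgn2 (ENSRNOG00000015430; chromosome 10, 56431573 to 56444847, minus strand) measured 75.9, 74.1 and 59.8 FPKM in animals 32, 39 and 68, a mean of 69.9 ± 8.84 (74.99 without animal 68). It held 58.4 ± 1.91% of the summed neuroligin FPKM and ranked 980 among all genes of the tables. Nlgn3 (ENSRNOG00000003812; chromosome X, 71199491 to 71222732, plus strand) measured 27.3, 26.5 and 25.6 FPKM, a mean of 26.4 ± 0.859. Nlgn1 (ENSRNOG00000032576; chromosome 2, 111059105 to 111065413, minus strand), whose protein acts mainly at excitatory synapses, measured 24.2, 24.1 and 20.9 FPKM, a mean of 23.1 ± 1.83.

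Nlgn2 stood well clear of the other neuroligins in each animal, while Nlgn3 and Nlgn1 lay near each other. Nlgn2 exceeded Nlgn1 3.13-fold, 3.07-fold and 2.84-fold in animals 32, 39 and 68, with a mean log2 ratio of 1.59 ± 0.07. It exceeded Nlgn3 2.77-fold, 2.79-fold and 2.33-fold (1.39 ± 0.15). Nlgn3 was above Nlgn1 in 3 of 3 animals, by 0.20 ± 0.08 on the log2 scale. The proportions of the neuroligins thus differed little between animals, with Nlgn1 at 19.0 to 19.7% of the sum and Nlgn3 at 21.2 to 24.1%. The Nlgn1 locus in the tables spans 6309 bases, 0.682% of the span of this gene in RefSeq (build GRCr8), so its fragments came from a part of the gene and its level relative to Nlgn2 and Nlgn3 is uncertain.

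The LRRTM genes had the lowest levels among the 9 members and split by how they varied. Lrrtm1 (ENSRNOG00000006093; chromosome 4, 108301129 to 108316373, plus strand) measured 19.0, 20.0 and 20.5 FPKM, a mean of 19.8 ± 0.769. Lrrtm2 (ENSRNOG00000047085; chromosome 18, 28012877 to 28017925, minus strand) measured 15.5, 14.9 and 16.7 FPKM, a mean of 15.7 ± 0.947. Proteins of both bind neurexins and help hold AMPA receptors at excitatory synapses, and both genes were highest in animal 68 by a small margin. Lrrtm4 (ENSRNOG00000021938; chromosome 4, 110699557 to 110704822, plus strand) measured 13.4, 10.2 and 6.41 FPKM, a mean of 10.0 ± 3.49. Lrrtm3 (ENSRNOG00000026466; chromosome 20, 25990304 to 26163656, plus strand) measured 7.98, 5.72 and 3.54 FPKM, a mean of 5.75 ± 2.22. Proteins of Lrrtm3 and Lrrtm4 bind heparan sulfate chains of presynaptic proteoglycans, and both genes were highest in animal 32 and lowest in animal 68. Without animal 68 their means were 6.85 FPKM for Lrrtm3 and 11.8 for Lrrtm4.

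Within the LRRTM family the proportions therefore differed between animals. The share of Lrrtm1 was 34.0, 39.4 and 43.4% of the summed LRRTM FPKM in animals 32, 39 and 68, and that of Lrrtm2 was 27.7, 29.3 and 35.5%. Lrrtm4 held 24.0, 20.1 and 13.6% and Lrrtm3 14.3, 11.2 and 7.50%. The Lrrtm4 locus used here spans 0.666% of the RefSeq gene and that of Lrrtm1 30.8%, so their levels relative to other LRRTM genes are uncertain. Lrrtm1 exceeded Lrrtm3 2.36-fold in animal 32 and 5.66-fold in animal 68, and its log2 ratio to Lrrtm4 ran from 0.50 to 1.66. By contrast, the log2 ratio of Lrrtm4 over Lrrtm3 was 0.74, 0.83 and 0.84, with an SD of 0.06, where each gene alone had an SD of 0.53 and 0.58. That of Lrrtm1 over Lrrtm2 was 0.29, 0.43 and 0.29. Lrrtm3 and Lrrtm4 were thus low in the same library and in near-constant proportion to each other. Of the 10 ratios within families, 10 had the same sign in all 3 animals.

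**Figure D2:**
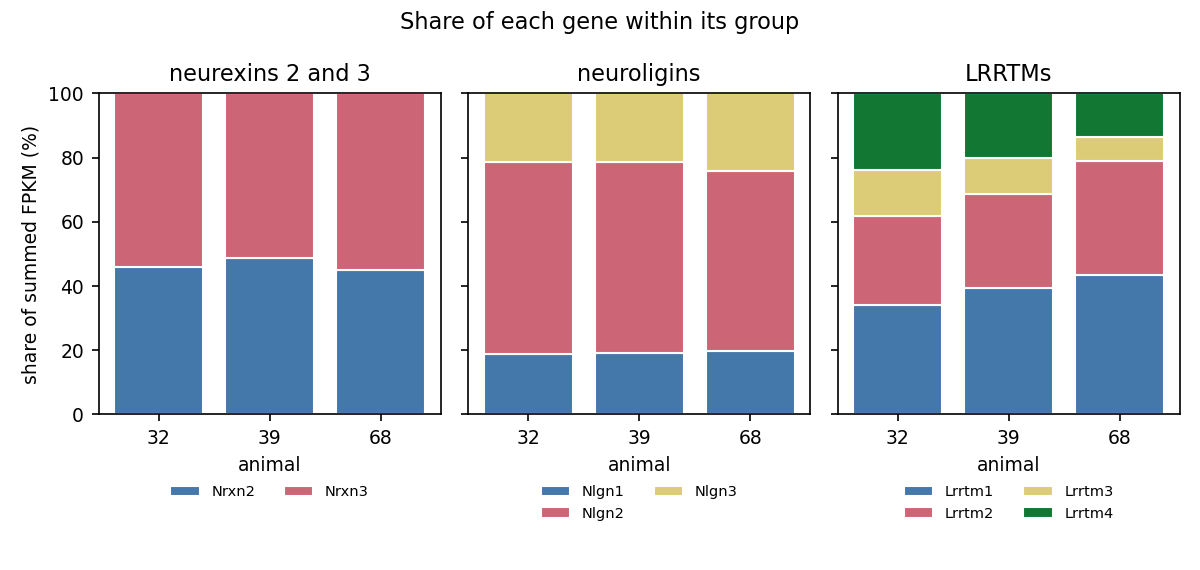
Share of each gene in the summed FPKM of its group, in percent, for animals 32, 39 and 68. Neurexin and neuroligin shares are alike across animals, whereas Lrrtm3 and Lrrtm4 take 7.50% and 13.6% in animal 68 against 14.3% and 24.0% in animal 32.

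**Figure D3:**
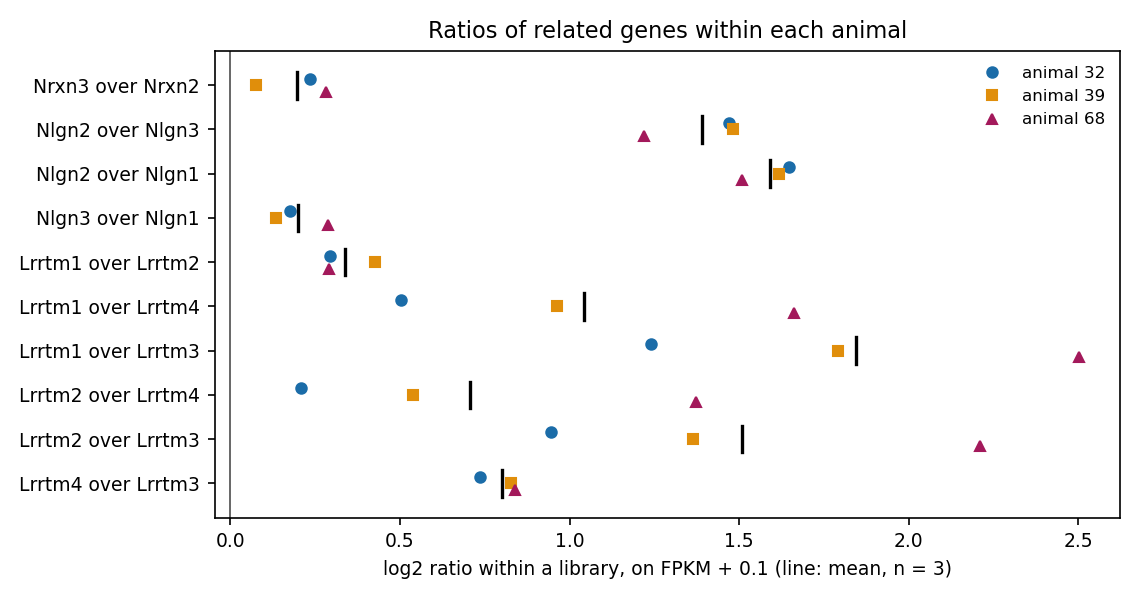
Log2 ratio of related genes within each library, on FPKM plus 0.1, with 1 point per animal and the mean as a line. Points of Lrrtm4 over Lrrtm3 lie together near 0.80, and those of Lrrtm1 over Lrrtm3 spread from 1.24 to 2.50.

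Summed over their members, neuroligins reached 119 ± 11.5 FPKM, the neurexin pair 77.2 ± 14.4 and LRRTMs 51.3 ± 4.35 (SD, n = 3). Neuroligins made up 48.3 ± 1.27% of the total over the 9 genes, the neurexin pair 30.9 ± 2.28% and LRRTMs 20.8 ± 1.22%. These sums cover 3, 2 and 4 genes. They include the loci of Nlgn1, Nrxn3 and Lrrtm4, which span 0.682, 10.3 and 0.666% of the RefSeq genes. The proportions between families are therefore uncertain. Animal 68 had the lowest sum in each family, at 0.697, 0.835 and 0.845 times the sum in animal 32 for neurexins, neuroligins and LRRTMs.

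How far the members differed between animals was read against the 13378 genes whose mean reached 1 FPKM. The median SD on the log2 scale was 0.19 over the 9 members and 0.20 over all genes. Every member had a mean above 5 FPKM, and when the background was cut at that level its median SD fell to 0.16. The near match of 0.19 and 0.20 thus depended on the filter, and the member median was the higher at the stricter cut. Nlgn3 (SD 0.05) varied less than most genes, as 5.91% of all genes had a lower SD, and Lrrtm1 (0.06) had 8.40% below it. Lrrtm2 (0.09) and Nlgn1 (0.12) were also under the median of all genes, and Nlgn2 (0.19) was close to it. Nrxn3 (0.26), Nrxn2 (0.32), Lrrtm4 (0.53) and Lrrtm3 (0.58) were above it, and 88.4% of all genes had a lower SD than Lrrtm3. Without animal 68 the median SD was 0.040 over the members and 0.11 over all genes, each from a pair of animals. The plot of spread against level sets the members among all genes.

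**Figure D4:**
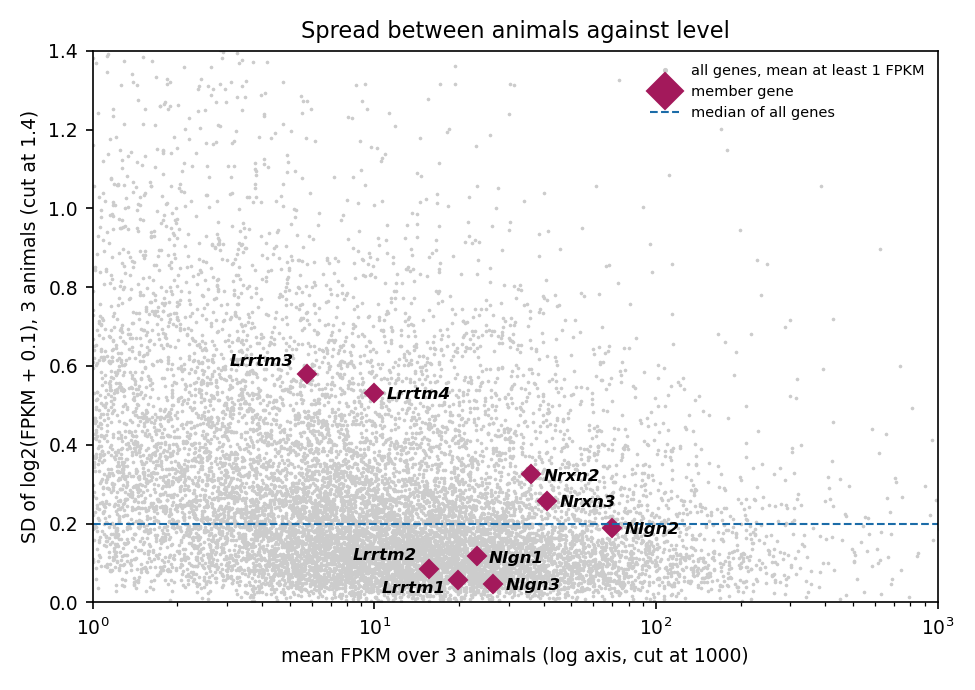
SD of log2(FPKM + 0.1) over 3 animals against mean FPKM on a log axis, with all genes of at least 1 FPKM in grey and the 9 members as diamonds. Nlgn3 and Lrrtm1 sit near the bottom and Lrrtm3 and Lrrtm4 above 0.5, with a median over all genes of 0.20.

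Of the 9 members, 7 were lowest in animal 68, where 35.5% of all genes were lowest in that animal. The exceptions were Lrrtm1, lowest in animal 32, and Lrrtm2, lowest in animal 39. Between animals 39 and 32, 0 of 9 members differed by more than 2-fold, against 3.14% of all genes, and between animals 68 and 39 the count was 0 against 6.14%. Between animals 68 and 32, 2 of 9 did, against 12.8% of all genes. Both were lower in animal 68, where 3.05% of all genes were more than 2-fold lower and 9.77% more than 2-fold higher. They were Lrrtm3, with a log2 difference of -1.15, and Lrrtm4, with -1.05. These lie just past 2-fold, and on FPKM plus 1 the differences were -0.99 and -0.96, with 0 members past 2-fold. With libraries rescaled to equal sums 1 member was past it. Nrxn2 (-0.54), Nrxn3 (-0.50), Nlgn2 (-0.34), Nlgn1 (-0.21) and Nlgn3 (-0.09) were lower by less, and Lrrtm1 and Lrrtm2 both stood at 0.11. The median over the members was -0.34, beside 0.07 over all genes. These are differences between 2 libraries with no replicate behind them.

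Sums of pan-neuronal, glutamatergic and GABAergic markers were lower in animal 68, as most members were, though not every marker was. The striatal neuron sum was higher there, at 1.90 times that in animal 32, with 1 of its 7 markers lower. In animal 68 the pan-neuronal sum was 0.675 times, the glutamatergic sum 0.744 times and the GABAergic sum 0.650 times that in animal 32, while the oligodendrocyte sum was 2.69 times and the astrocyte sum 3.22 times as high. Of the 6 glutamatergic markers, the transcription factor Neurod6 went the other way, at 47.3, 78.4 and 107 FPKM in animals 32, 39 and 68, and the transporter Slc17a7 measured 521, 537 and 495. The median of that list was 284, 308 and 301 FPKM. Fewer neurons and less of these transcripts per neuron cannot be told apart in bulk tissue. Scalings by marker sums were chosen after the values were seen. Divided by the pan-neuronal sum of the same library, 7 members were higher in animal 68 than in animal 32 and 2 were lower. Division by the GABAergic sum gave the same counts, and division by the glutamatergic sum gave 5 higher and 4 lower. This outcome depended on the marker list for the neurexins, whose ratio of animal 68 to 32 was 1.02 for Nrxn2 and 1.05 for Nrxn3 per pan-neuronal sum but 0.921 and 0.951 per glutamatergic sum. The pan-neuronal scaling raises the difference of every gene by about 0.57 on the log2 scale. The median over all genes was 0.07 before it, so a gene at that median was also higher in animal 68 after it. The share of all genes higher in animal 68 after each division was not computed, so these counts are not a result about the members. Per pan-neuronal sum the log2 difference was 0.02 for Nrxn2 and 0.07 for Nrxn3. It was 0.36, 0.22 and 0.47 for Nlgn1, Nlgn2 and Nlgn3, so the sign of the neuroligin differences turned, as it also did per glutamatergic sum. Lrrtm1 and Lrrtm2 then stood at 0.67 and 0.68, and Lrrtm3 and Lrrtm4 remained lower, at -0.60 and -0.49. The part of tissue composition in the member values was not tested.

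**Figure D5:**
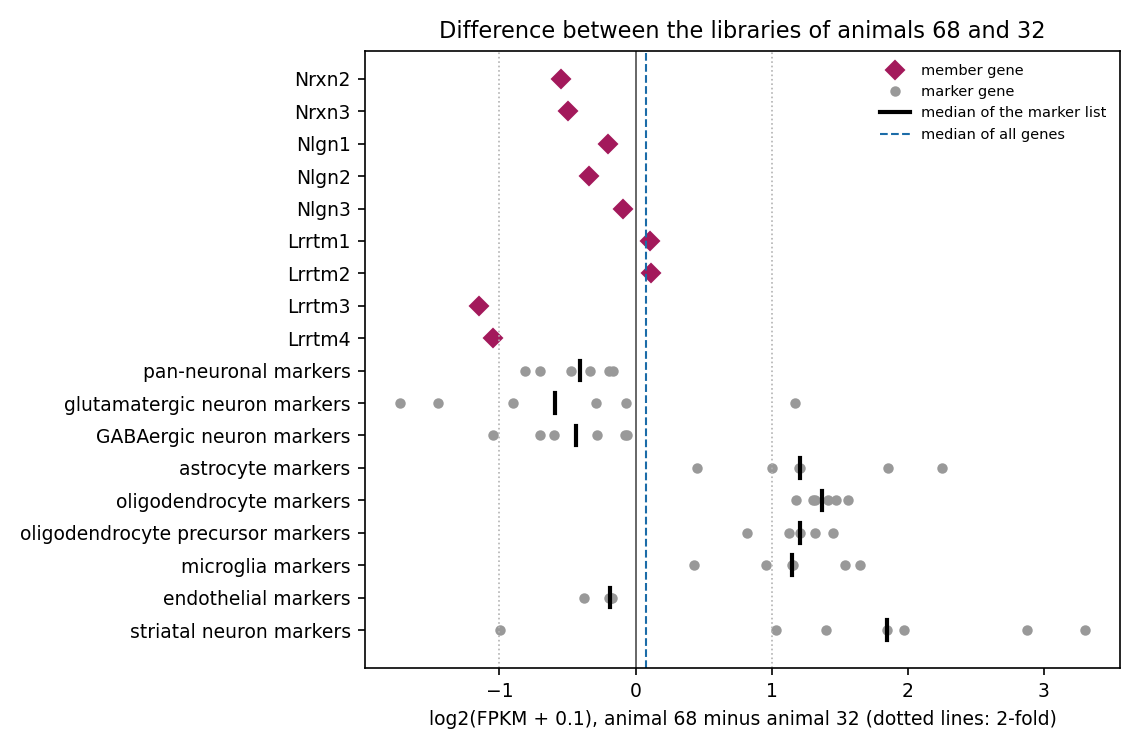
Log2 difference of FPKM plus 0.1 between animals 68 and 32 for the 9 members (diamonds) and for marker genes (grey points, list median as a bar), with the median of all genes as a dashed line at 0.07. Lrrtm3 and Lrrtm4 lie past -1, oligodendrocyte markers have a median of 1.37, and choroid plexus markers, with a median of 7.08, are left off the axis.

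Promoter sequences were read from RefSeq (build GRCr8), from 250 bases before to 50 after each gene's start, and 7 of the 9 members had one. Nrxn2 and Nrxn3 had none. Sequences are shown for Nlgn2, the highest member, for Lrrtm3 and Lrrtm4, which were low in the same library, and for Lrrtm2, which was not. The windows are chr10:55056529-55056828 (minus strand) for Nlgn2, chr18:27096918-27097217 (minus strand) for Lrrtm2, chr20:24514054-24514353 (plus strand) for Lrrtm3 and chr4:114104380-114104679 (plus strand) for Lrrtm4. Each reads 5′ to 3′ on the gene's strand. Capitals mark matches on either strand to 4 motifs: the cyclic AMP response element TGACGTCA, the E-box CACGTG, the GC-box GGGCGG and the TATA-box TATAAA.
Nlgn2: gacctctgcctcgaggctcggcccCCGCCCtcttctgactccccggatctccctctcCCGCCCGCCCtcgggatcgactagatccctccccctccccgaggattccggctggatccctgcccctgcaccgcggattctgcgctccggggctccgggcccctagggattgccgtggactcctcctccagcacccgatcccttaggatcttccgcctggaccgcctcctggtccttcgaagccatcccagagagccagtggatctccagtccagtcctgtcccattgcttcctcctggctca
Lrrtm2: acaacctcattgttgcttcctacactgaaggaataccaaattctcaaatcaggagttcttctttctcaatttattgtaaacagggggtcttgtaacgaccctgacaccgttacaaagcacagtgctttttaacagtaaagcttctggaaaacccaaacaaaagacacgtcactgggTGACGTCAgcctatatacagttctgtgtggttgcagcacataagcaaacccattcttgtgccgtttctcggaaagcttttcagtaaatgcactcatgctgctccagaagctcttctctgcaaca
Lrrtm3: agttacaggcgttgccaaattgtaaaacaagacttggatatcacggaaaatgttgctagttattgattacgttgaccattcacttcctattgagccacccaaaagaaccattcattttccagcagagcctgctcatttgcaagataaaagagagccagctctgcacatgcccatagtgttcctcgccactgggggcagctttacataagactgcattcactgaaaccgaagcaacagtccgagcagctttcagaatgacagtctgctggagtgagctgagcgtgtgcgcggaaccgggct
Lrrtm4: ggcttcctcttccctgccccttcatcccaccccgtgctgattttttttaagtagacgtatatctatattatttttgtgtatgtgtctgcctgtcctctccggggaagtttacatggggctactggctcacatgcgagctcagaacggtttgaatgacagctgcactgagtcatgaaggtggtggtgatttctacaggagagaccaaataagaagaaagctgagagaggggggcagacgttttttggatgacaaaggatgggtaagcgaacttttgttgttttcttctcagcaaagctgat
The Nlgn2 window held 3 GC-boxes, of which the last 2 overlap, and 33.1% of the 33469 promoters in the table hold at least 1. Its GC content was 67.3%, against a median of 51.7% over all promoters. Lrrtm2 held 1 full cyclic AMP response element, 74 to 67 bases before the start, which 1.83% of all promoters hold. The windows of the other 5 members, Lrrtm3 and Lrrtm4 among them, held no match to these letters, and E-box and TATA-box motifs, found in 6.42% and 14.2% of all promoters, were in none of the 7. GC content was 43.0% for Lrrtm2, 47.7% for Lrrtm3, 46.3% for Lrrtm4 and 49.0% for Lrrtm1, and 43.3% and 61.7% for Nlgn1 and Nlgn3. A match is a run of letters and not a measured binding site.

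Position in the genome sets a further limit on LRRTM values. Lrrtm2 lies wholly inside the locus of Ctnna1, an alpha-catenin gene that links cadherins to actin, on the opposite strand. Ctnna1 measured 23.6, 26.9 and 39.8 FPKM, highest in animal 68 by more than Lrrtm2 was. In RefSeq, Lrrtm1 and Lrrtm3 likewise lie inside alpha-catenin genes, Ctnna2 and Ctnna3, but the shorter models in the tables do not contain them. Ctnna2 measured 56.3, 48.0 and 37.9 FPKM and Ctnna3 0.546, 1.498 and 1.73, so host and nested gene differed in level. Whether the counting used strand is not given in the sources used here, and fragments of Ctnna1 and Lrrtm2 could then not be told apart where they overlap. Loci in the tables spanned 10.3% of the RefSeq gene for Nrxn3, 30.8% for Lrrtm1 and 0.666% for Lrrtm4. For Nrxn2, Nlgn2, Nlgn3, Lrrtm2 and Lrrtm3 they spanned 82.6 to 100%. Spans include introns, so the exonic length missed is not known. Of other loci overlapping members, those of 5S ribosomal RNA in Nrxn2 and Nrxn3 were listed at 0, and a locus that shares 1175 bases with Nlgn3 measured 0.205 to 0.234 FPKM.

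Other extracellular partners of neurexins were present at a wide range of levels. Of the 14 listed ligands, 11 were at 1 FPKM or more in every library. The calsyntenins Clstn1 (424 ± 123 FPKM) and Clstn3 (127 ± 27.2) were highest, above every neuroligin and LRRTM. Dystroglycan, from Dag1, stood at 31.8 ± 6.18, and the secreted C1q-like ligand gene C1ql3 at 29.9 ± 8.34. Between animals 68 and 32, 2 of the 13 ligands whose mean reached 1 FPKM were more than 2-fold lower and 2 more than 2-fold higher, against 3.05% and 9.77% of all genes, with a median log2 difference of -0.38 beside 0.07 over all genes. These 4, named after their values were seen, were the cerebellins Cbln2 (35.5, 25.1 and 8.63 FPKM) and Cbln1 (1.48, 1.03 and 0.486), which were lower, and C1ql2 (2.04, 18.4 and 7.01) and the neurexophilin Nxph4 (0.888, 2.85 and 2.10), which were higher. Cerebellins are secreted proteins that link neurexins to delta glutamate receptors. Cbln2 was low in animal 68, as Lrrtm3 and Lrrtm4 were, but a match picked from 3 libraries cannot show a shared pattern.

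Intracellular partners were detected throughout. All 11 were at 1 FPKM or more in every library. The excitatory scaffold Dlg4, which binds neuroligin tails, measured 210 ± 36.3 FPKM. The presynaptic adaptors Apba2 (68.5 ± 3.59) and Lin7b (57.6 ± 13.6) were also among the 4 highest. Lower in the list, and named for their roles after their values were seen, were Gphn (22.2 ± 1.49), which encodes gephyrin of the inhibitory postsynapse where neuroligin 2 acts, and Cask (3.46 ± 0.0687), whose protein binds neurexin tails. Between animals 68 and 32, 1 of 11 was more than 2-fold lower, against 3.05% of all genes, which was Lin7a at 3.18, 2.59 and 1.51 FPKM, and the median log2 difference was -0.19. Among extracellular modulators, the shedding protease Adam10 measured 20.8 ± 3.42 FPKM, the neuroligin-binding Mdga1 and Mdga2 6.93 ± 2.33 and 4.20 ± 0.388, and the glypican Gpc4, whose protein binds LRRTM4, 5.48 ± 0.851. The protease Mmp9 (1.97, 0.782 and 0.495 FPKM) was more than 2-fold lower in animal 68 than in animal 32, the 1 of 5 to be so against 3.05% of all genes, and the median log2 difference of the list was 0.26. Of the RNA-binding proteins that control a neurexin alternative exon, Khdrbs3 was highest at 122 ± 8.48 FPKM, with Khdrbs1 at 37.5 ± 3.18 and Khdrbs2 at 5.24 ± 1.13, and 0 of 3 were past 2-fold, against 12.8% of all genes.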

How the data were processed

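Motor cortex mRNA of 3 untreated rats was sequenced, 1 library per animal. Per the labels, the authors counted fragments for each gene and normalized the counts, and a Perl script turned them into the deposited FPKM. The submitters' processing notes name HISAT2 2.0.4, StringTie 1.3.0 and the build Rnor_6.0 without roles. Whether counting used strand, the read length and the annotation release were not stated.

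Each table lists the same 30957 genes, and 0 values above 0 were shared between libraries for a gene, so each library counted as a replicate. Members were matched by symbol, and of repeated entries the one with the highest mean was taken. Differences used log2(FPKM + 0.1), and the background was the 13378 genes whose mean reached 1 FPKM. Depth was inferred from loci of up to 400 bases, taking the commonest product of value and span as 1 fragment. It came to 16550241 fragments in animal 32, 15460924 in animal 39 and 17670986 in animal 68. Of such loci above 1 fragment, 77.5, 80.5 and 72.6% were then within 0.02 fragments of a whole number. Fragments made by PCR are not independent, so depth covers counting error only. FPKM is already divided by length and library size, so no count test was used.

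Named genes are all members, up to 4 genes per partner list with the highest mean, and others where stated. A gene that the rule names is not reported here, and list counts and medians include it. Members and lists were chosen with earlier results of these data known. Alternatives changed the pseudocount, filter and scaling, or left out each animal. The share past 2-fold, the SD and the depth estimate were tested on simulated data, but order, shares, sums and ratios were not. The simulated depth was built on the assumption that the estimate uses, so its recovery was nearly fixed by construction. Python 3.11.15, pandas 2.3.3, numpy 2.4.6 and matplotlib 3.10.9 were used.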

Additional observations from a re-analysis of the deposited data

How the results depend on the processing

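Levels, family sums and ratios within families kept to within 1 SD under 85 of 86 combinations of value and alternative with all animals. The exception was Lrrtm4 over Lrrtm3, with a log2 ratio of 0.71 at a pseudocount of 1. For equal sums and median of ratios this outcome is nearly fixed by construction. Their library factors lay on both sides of 1 and close to it, so mean levels and sums could move little. Such a factor also cancels in a ratio within a library, apart from the pseudocount. The count of 85 therefore says little about how robust the values are to these scalings. The count of members past 2-fold between any 2 animals was 2, and it was 0 at a pseudocount of 1, 1 with equal sums and 0 per summed pan-neuronal, glutamatergic or GABAergic markers. The share of all genes past 2-fold was 14.5%, against 9.37% at a pseudocount of 1 and 9.02% with a mean of at least 5 FPKM.

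The log2 difference between animals 68 and 32 has no SD of its own. It was counted as moved when it shifted by more than the SD of that gene's log2 level over the 3 animals. A scaling by 1 factor shifts every gene about alike, so such moves depend on how small that SD is. They were found for Nlgn3 (-0.027 with equal sums, -0.19 with median-of-ratios scaling) and Lrrtm1 (0.18 with equal sums, 0.014 with median of ratios, 0.049 with quantiles). Lrrtm2 moved too (0.017 with median of ratios and 0.022 with quantiles). Per summed pan-neuronal markers the difference was 0.022 for Nrxn2, 0.069 for Nrxn3, 0.36 for Nlgn1, 0.22 for Nlgn2, 0.47 for Nlgn3, 0.67 for Lrrtm1, 0.68 for Lrrtm2 and -0.49 for Lrrtm4. Per summed glutamatergic markers it was -0.12 for Nrxn2, -0.072 for Nrxn3, 0.22 for Nlgn1, 0.082 for Nlgn2, 0.33 for Nlgn3, 0.53 for Lrrtm1 and 0.54 for Lrrtm2. Per summed GABAergic markers the values were 0.077, 0.12, 0.41, 0.28, 0.53, 0.73 and 0.73 in the same order, with -0.54 for Lrrtm3 and -0.44 for Lrrtm4. All 3 marker scalings were chosen after seeing the data. The cause was not tested.

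With 1 animal left out, the count past 2-fold ran from 0 (without animal 32 or 68) to 2, the median SD of the members from 0.040 (without animal 68) to 0.24, that of all genes from 0.11 (without animal 68) to 0.22, and the share of all genes past 2-fold from 2.75% (without animal 68) to 13.1%. No paired analysis was possible because there is 1 group. Values of Lrrtm3 rest on the fewest fragments per kilobase.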

Other observations

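Adhesion systems that work beside neurexins were also present. Of the latrophilins, their FLRT ligands and the teneurins, 9 of 10 listed genes were found and all 9 were at 1 FPKM or more in every library. The latrophilin gene Adgrl1 measured 88.0 ± 13.2 FPKM (SD, n = 3), Tenm3 20.0 ± 3.10, Tenm2 16.7 ± 1.02 and Flrt2 11.9 ± 0.820. Adgrl1 thus stood above Nlgn2 in mean level, with 96.7, 94.5 and 72.8 FPKM in animals 32, 39 and 68. Of these 9 genes, 0 differed more than 2-fold between animals 68 and 32, against 12.8% of all genes.

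The presynaptic LAR-type phosphatases and their postsynaptic partners had 13 of 14 listed genes in the tables, all at 1 FPKM or more in every library. Ptprs measured 95.2 ± 6.998 FPKM and its partner Lrrc4b 87.4 ± 4.35. Ptprd, at 36.6 ± 0.927, was at 35.6, 36.6 and 37.5 FPKM in animals 32, 39 and 68, and Slitrk1 stood at 29.9 ± 6.33. The median log2 difference between animals 68 and 32 was -0.05 over these 13 genes and -0.15 over the 9 of the latrophilin list, beside -0.34 over the 9 neurexin, neuroligin and LRRTM genes and 0.07 over all genes. Whether these medians differ was not tested.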
